A study of Homo sapiens with 12 samples.

Results

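The PHLDA family consists of PHLDA1, PHLDA2 and PHLDA3, 3 of the 19447 gene symbols in the count table. Its members were chosen by name, because of how PHLDA1 differed between K562/IM and the libraries labelled K562/IM+L, and because that change differed from the change in K562. All 4 groups enter these differences, so PHLDA1 is described without a test in every comparison. PHLDA2 and PHLDA3 entered by name and were tested wherever their counts allowed it, although their values may have been in view when the family was picked. PHLDA1 and PHLDA2 passed the filter on low counts and PHLDA3 did not.

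PHLDA proteins are small proteins built around a pleckstrin homology-like domain, a fold that binds phosphoinositides of the cell membrane. PHLDA1, also named TDAG51, is induced by ERK signalling and by several kinds of stress, and it has been linked both to cell death and to protection from it. PHLDA2 is an imprinted gene of the 11p15.5 domain that restrains placental growth, and PHLDA3 is a target of p53 that competes with AKT for phosphoinositides. K562 cells lack functional p53.

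The 12 poly(A) RNA libraries came from 4 groups of 3. K562 cells are human chronic myeloid leukemia cells with the BCR-ABL fusion. The group K562 was an untreated control and K562+L received lycorine, an alkaloid of the Amaryllidaceae. K562/IM, an imatinib-resistant derivative obtained from K562 under rising concentrations of imatinib, was the control of its own pair, and K562/IM+L was labelled as K562/IM cells given lycorine. All 4 groups therefore derive from K562, and a single resistant line stands for resistance. Neither the length of exposure before sequencing nor separate cultures for the 3 libraries of a group are given in the sources used here, so that the p-values measure the spread between these libraries, which may be technical.

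The libraries held from 75093844 to 107344598 counts, and all 11 K562 markers examined were detected in every group. The group numbers of the labels and of the study differ for the lycorine-treated K562/IM cells. ABCB1, which encodes the drug efflux pump P-glycoprotein, was measured in CPM (counts scaled to a TMM-normalized library total) at 21.9 to 25.9 in K562/IM, 1.68 to 1.86 in K562, 3.83 to 5.15 in K562+L and 0.488 to 1.06 in those labelled K562/IM+L. These libraries thus lay below both lines. A low ABCB1 level in treated cells is no proof of a wrong label, and every direction drawn from them rests on it. The summed level of the K562 markers, which are mostly erythroid genes, was 10200 to 13400 CPM in them, against 1980 to 2110 in K562/IM, 2310 to 2530 in K562+L and 2750 to 3710 in K562. Most of the sum in the labelled libraries was HBG1, at a mean of 8520 CPM against 541 to 1770 in the other groups. BCR, at 94.1 CPM, and ABL1, at 328 CPM, lay within the range of the other groups' means, and the remaining markers lay above it. The 10 markers of other cell types summed to 86.5 to 107 CPM in the labelled libraries and 91.2 to 136 CPM in the other 3 groups. Most of that sum was EPCAM, at a mean of 46.3 CPM in K562/IM and 94.7 to 128 in the others, and MS4A1 was at 0 throughout. Single markers were higher in K562/IM, as PHLDA1 was: the T cell gene CD3D averaged 22 CPM there and 0.343 to 2.15 in the other groups. CD3E, also a T cell gene, was not: it averaged 0.07 CPM in K562/IM and 0.1 to 0.286 in the other groups. The collagen gene COL1A2 averaged 17.2 CPM in K562/IM and at most 0.0294 elsewhere, and COL1A1 4.28 against 0.484 to 0.568. The part of these differences in the results below was not tested.

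The members are encoded on 3 chromosomes, all on the minus strand of GRCh38. PHLDA1 (ENSG00000139289.13) lies at chr12:76025447-76033932 and its longest GENCODE transcript has 2 exons and 8069 bases, of which 1203 are coding and 4672 belong to the 3′ UTR. PHLDA2 (ENSG00000181649.6) lies at chr11:2928273-2929455 and its longest transcript has 2 exons and 955 bases, with 456 coding. PHLDA3 (ENSG00000174307.6) lies at chr1:201464383-201469237, and its longest transcript has 2 exons and 2640 bases, with 381 coding. The 3′ UTR of PHLDA1 is thus longer than the whole transcript of PHLDA2. Antisense long noncoding genes overlap PHLDA1 on the plus strand, and the strand setting of the counting is not given, so that reads of the gene and of its antisense partners cannot be told apart.

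PHLDA1 was highest in K562/IM and lowest where the label was K562/IM+L. The 3 K562 libraries held 3.12, 3.52 and 3.24 CPM (254, 295 and 252 counts). The K562+L libraries held 8.36, 11.9 and 9.91 CPM (724, 1031 and 1033 counts). The K562/IM libraries held 52.9, 53.1 and 49.1 CPM (4416, 5100 and 5267 counts). Those labelled K562/IM+L held 2.49, 2.37 and 2.34 CPM (198, 170 and 220 counts). No pair of groups overlapped, and the order from low to high was the labelled libraries, K562, K562+L and K562/IM. Such separation was common: 25.7% of all genes tested were higher without overlap in K562+L than in K562 and 35.5% in K562/IM than in K562, and the labelled libraries had 38.5% lower without overlap than K562/IM and 30.2% than K562.

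**Figure D1:**
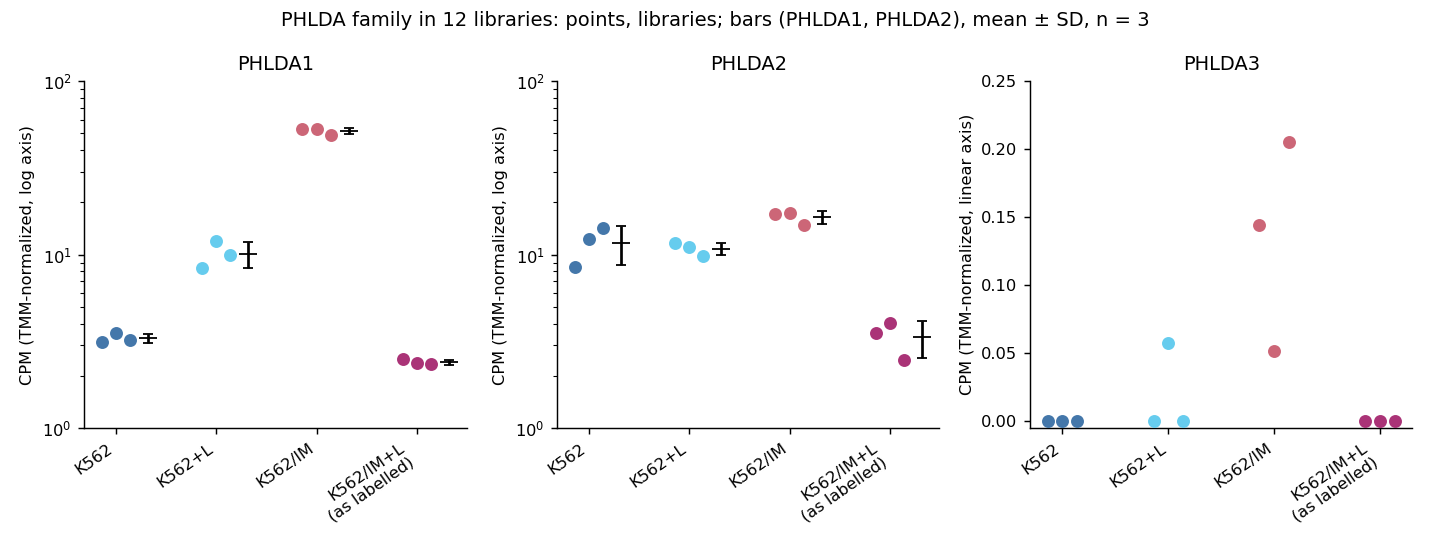
CPM of PHLDA1, PHLDA2 and PHLDA3 in the 12 libraries (points), with the mean ± SD of each group beside the points of PHLDA1 and PHLDA2 (n = 3); the axis is logarithmic for these and linear for PHLDA3. PHLDA1 stood at 49.1 to 53.1 CPM in K562/IM and at 2.34 to 2.49 in those labelled K562/IM+L, and PHLDA3 was above 0 in 4 libraries.

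Resistant cells carried the higher PHLDA1 level. The mean was 51.7 ± 2.21 CPM (SD, n = 3) in K562/IM against 3.29 ± 0.204 CPM (SD, n = 3) in K562, 15.7-fold higher, with a log2 fold change of 3.97 (SE 0.093). In this comparison 30.1% of the 13406 genes tested were called higher and 27.1% lower (called meaning an adjusted p below 0.05, edgeR quasi-likelihood test), and PHLDA1 ranked 395 from the highest log2 fold change. In RNA of whole cultures, a larger share of cells with the transcript and more transcript in each cell cannot be told apart.

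Lycorine-treated K562 cells also held more PHLDA1 than their control. The mean was 10.1 ± 1.78 CPM (SD, n = 3) in K562+L, 3.05-fold that of K562, with a log2 fold change of 1.61 (SE 0.16). In this comparison 18.2% of the 12927 genes tested were called higher and 19.0% lower, and PHLDA1 stood at rank 167 from the highest. The relative spread was widest in K562+L, with a coefficient of variation of 17.7%, against 6.2% in K562, 4.28% in K562/IM and 3.35% in the labelled libraries.

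With the label K562/IM+L the direction was the opposite one. PHLDA1 averaged 2.40 ± 0.0805 CPM (SD, n = 3), 21.1-fold below K562/IM, with a log2 fold change of -4.40 (SE 0.085). Here 33.2% of 13727 genes were called higher and 33.6% lower, and PHLDA1 was at rank 277 from the lowest. Against parental K562 the labelled libraries were 1.39-fold lower, with a log2 fold change of -0.475 (SE 0.16). That comparison called 28.2% of 13307 genes higher and 27.8% lower. The difference between the effects labelled as lycorine in K562/IM and in K562 was -6.03 on the log2 scale (SE 0.18) for PHLDA1. Over all 13995 genes 29.9% were called higher and 31.7% lower for that difference. These comparisons share libraries with each other, so that their values are not independent.

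PHLDA2 varied less than PHLDA1 across the groups. The K562 libraries held 8.43, 12.3 and 14.3 CPM (687, 1029 and 1111 counts), the widest spread among the groups. The K562+L libraries held 11.6, 11 and 9.87 CPM (1003, 955 and 1028 counts). The K562/IM libraries held 17.1, 17.4 and 14.9 CPM (1432, 1672 and 1593 counts). Those labelled K562/IM+L held 3.52, 4.06 and 2.47 CPM (280, 291 and 232 counts). The labelled libraries lay below every other library. Such a gap was common: with this label set against K562/IM, 38.5% of all genes tested were lower without overlap, and 30.2% against K562. K562 and K562+L overlapped, and the lowest K562/IM library stood just above the highest K562 library.

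Against either line, PHLDA2 fell where cells were labelled K562/IM+L. Its mean there was 3.35 ± 0.812 CPM (SD, n = 3), against 16.5 ± 1.40 CPM (SD, n = 3) in K562/IM and 11.7 ± 2.98 CPM (SD, n = 3) in K562. Against K562/IM the log2 fold change was -2.27 (SE 0.19, 4.84-fold lower, adjusted p = 3.76e-05), with a 95% interval from -2.72 to -1.83. Against K562 it was -1.82 (SE 0.27, 3.53-fold lower, adjusted p = 0.00103), with a 95% interval from -2.44 to -1.19 and rank 275 from the lowest. PHLDA1 and PHLDA2 thus lay apart in the latter comparison, PHLDA1 1.39-fold and PHLDA2 3.53-fold below K562.

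Neither K562+L nor K562/IM differed from K562 in PHLDA2 past the threshold. In K562+L the mean was 10.8 ± 0.874 CPM (SD, n = 3) and the log2 fold change against K562 was -0.109 (SE 0.19, adjusted p = 0.676), with a 95% interval from -0.542 to 0.323. Without the third K562 library its sign turned, to 0.0623. Between K562/IM and K562 the log2 fold change was 0.497 (SE 0.19, adjusted p = 0.051) and its 95% interval, unadjusted, ran from 0.0653 to 0.929. Although no K562 library reached the K562/IM range, 35.5% of all genes tested were likewise higher in K562/IM without overlap. Of 14 alternatives 6 passed the threshold and 8 did not. The log2 fold change was 0.657 without the third K562 library (adjusted p = 0.0149) and 0.276 without the first (adjusted p = 0.0709). The difference between the effects labelled as lycorine in the 2 lines did pass the threshold, at -2.19 (SE 0.29, adjusted p = 4.92e-05).

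**Figure D2:**
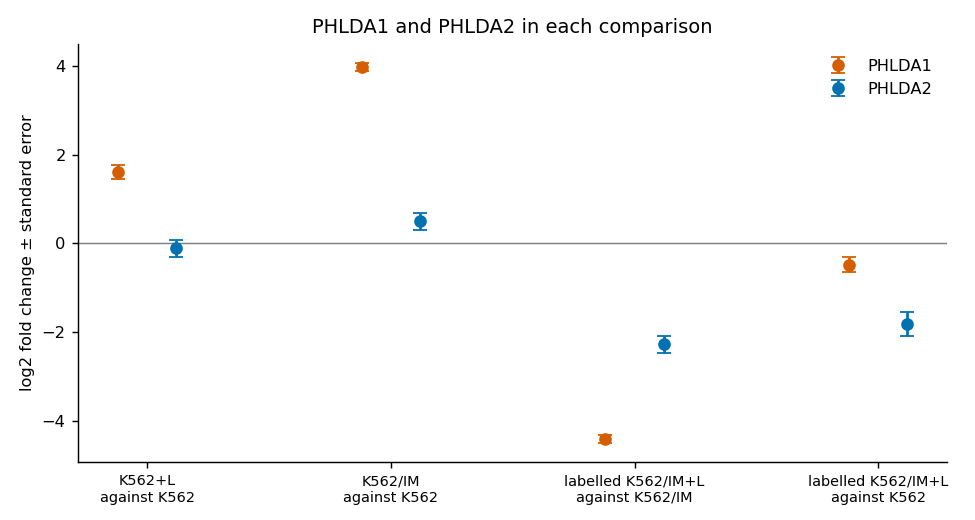
Log2 fold change of PHLDA1 and PHLDA2 in 4 comparisons, with edgeR's standard error as bars. PHLDA1 was 3.97 in K562/IM against K562 and -4.40 in the labelled libraries against K562/IM, and PHLDA2 was -0.109 in K562+L against K562.

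**Figure D3:**
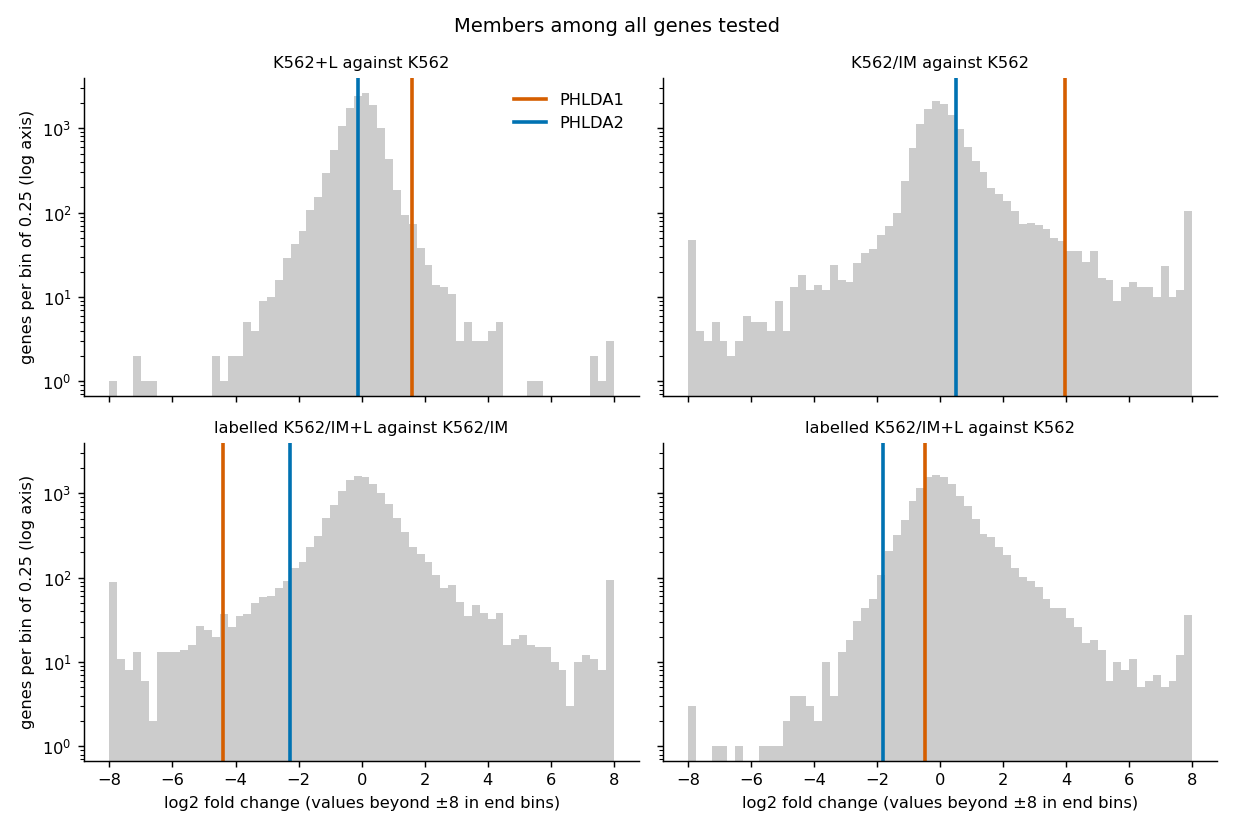
Histograms of the log2 fold change of all genes tested in 4 comparisons (log axis, bins of 0.25), with lines at PHLDA1 and PHLDA2. In K562/IM against K562 the line of PHLDA1 lies at 3.97 in the upper tail and that of PHLDA2 at 0.497, whereas against K562 the labelled libraries have PHLDA2, at -1.82, farther into the lower tail than PHLDA1, at -0.475.

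Levels of the members relative to each other were compared per kb of exon. PHLDA2 was the more abundant transcript in all groups. PHLDA1 averaged 0.408 CPM per kb in K562, 1.25 in K562+L, 6.41 in K562/IM and 0.297 in the labelled libraries. PHLDA2 averaged 12.2, 11.3, 17.2 and 3.51 CPM per kb in the same order. The ratio of PHLDA1 to PHLDA2 per kb within a library was 0.0268 to 0.0438 in K562 and 0.0854 to 0.128 in K562+L. It was 0.361 to 0.391 in K562/IM and 0.0691 to 0.112 in the labelled libraries. With the shortest PHLDA1 transcript, of 5741 bases, the ratios ran from 0.0377 to 0.55, still below 1 in all 12 libraries. Among 13730 genes ranked per kb, PHLDA1 exceeded 22.5% in K562, 31.0% in K562+L, 54.4% in K562/IM and 17.3% in the labelled libraries. PHLDA2 exceeded 70.8%, 68.8%, 80.0% and 42.7% of these genes.

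PHLDA3 was close to absent. It held 0 counts in all K562 libraries and in all those labelled K562/IM+L, which allows up to 3 counts in each, or 0.028 to 0.0419 CPM over the 12 libraries. In K562+L the libraries held 0, 5 and 0 counts, the 5 counts being 0.0577 CPM. The K562/IM libraries held 12, 5 and 22 counts, or 0.144, 0.052 and 0.205 CPM. K562/IM was thus the only group with PHLDA3 counts in all libraries, and each of its values exceeded the limit of 3 counts in its own library. Small values in the table are often a multiple of 4 or 1 above one, and a few counts may therefore stand for a single fragment. A limit set in fragments would then be higher, and the lower K562/IM counts might not exceed it. Without the low-count filter the adjusted p was 0.0255 for K562/IM against K562, 0.0235 for the labelled libraries against K562/IM, 0.384 for K562+L against K562 and 0.0296 for the difference between the lycorine effects. Each comparison of a pair of groups held PHLDA3 counts only in the group where it was higher. Its direction there was set in advance, and these values are no evidence of a difference. An annotated noncoding gene on the same strand overlaps the 3′ end of PHLDA3, and its reads cannot be set apart here.

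PHLDA1 is commonly read with other output genes of the ERK pathway, which comprise feedback inhibitors (SPRY2, SPRY4, DUSP4, DUSP6), ETS factors (ETV4, ETV5), the ephrin receptors EPHA2 and EPHA4, and cyclin D1 (CCND1). Without PHLDA1 the list holds 9 genes, of which 8 were tested. Counts for this and later lists stand beside the shares of all genes called higher and lower. These were 18.2% and 19.0% in K562+L and 30.1% and 27.1% in K562/IM, both against K562. In the labelled libraries they were 33.2% and 33.6% against K562/IM, and 28.2% and 27.8% against K562. For the difference between the lycorine effects they were 29.9% and 31.7%. Counts near these shares show nothing particular to a list. In K562/IM against K562, 4 were called higher and 1 lower, and the median log2 fold change was 0.969 where that of all genes was 0.0419. SPRY4 rose from 13.4 ± 1.88 to 50.6 ± 1.52 CPM (SD, n = 3), with a log2 fold change of 1.91 (SE 0.11, adjusted p = 8.59e-06). The gene called lower was EPHA4, which was near the limit of detection, at 0 to 0.0599 CPM in the K562/IM libraries and 0.245 to 0.62 in K562. It passed the low-count filter only through K562. DUSP6, among the genes called higher, was also low, at 0.243 ± 0.216 CPM in K562 and 1.39 ± 0.305 in K562/IM (SD, n = 3).

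In K562+L the list and PHLDA1 lay on opposite sides of 0. None of the 8 genes was called higher and 6 were called lower, with a median log2 fold change of -0.928, while that of PHLDA1 was 1.61. Of all genes 18.2% were called higher and 19.0% lower. CCND1 fell from 20.4 ± 1.88 to 4.26 ± 0.364 CPM (SD, n = 3), with a log2 fold change of -2.26 (SE 0.12, adjusted p = 4.81e-05). EPHA4 was also called lower here, but leaving out any 1 of 5 of the 6 libraries raised its adjusted p to between 0.055 and 0.0758. The filter was passed through K562, where EPHA4 was higher.

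Where cells were labelled K562/IM+L both were lower than in K562/IM. Of the 8 genes 6 were called lower and 1, EPHA4, higher, with a median log2 fold change of -4.07. EPHA4 held 0 to 0.0599 CPM in K562/IM and 0.499 to 0.823 in the labelled libraries. The low-count filter was passed only through the latter, so that the direction of EPHA4 was set by them. SPRY4 stood at 0.642 ± 0.114 CPM (SD, n = 3) in the labelled libraries, a log2 fold change of -6.28 against K562/IM (SE 0.14, adjusted p = 1.77e-07). ETV5 fell from 29.7 ± 0.732 to 0.442 ± 0.237 CPM (SD, n = 3), with a log2 fold change of -6.08 (SE 0.36, adjusted p = 7.27e-06). Against K562, 5 were called lower and none higher, with a median of -2.08. ETV4 there had a log2 fold change of -5.28 (SE 0.14, adjusted p = 3.07e-06), falling from 81.2 ± 9.51 to 2.12 ± 0.162 CPM (SD, n = 3). PHLDA1, at -0.475, lay nearer to its K562 level than the 5 genes called lower, while EPHA2 and EPHA4 lay nearer still, at -0.0999 and 0.3, and did not pass. For the difference between the lycorine effects 1 list gene, EPHA4, was called higher and 5 lower.

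**Figure D4:**
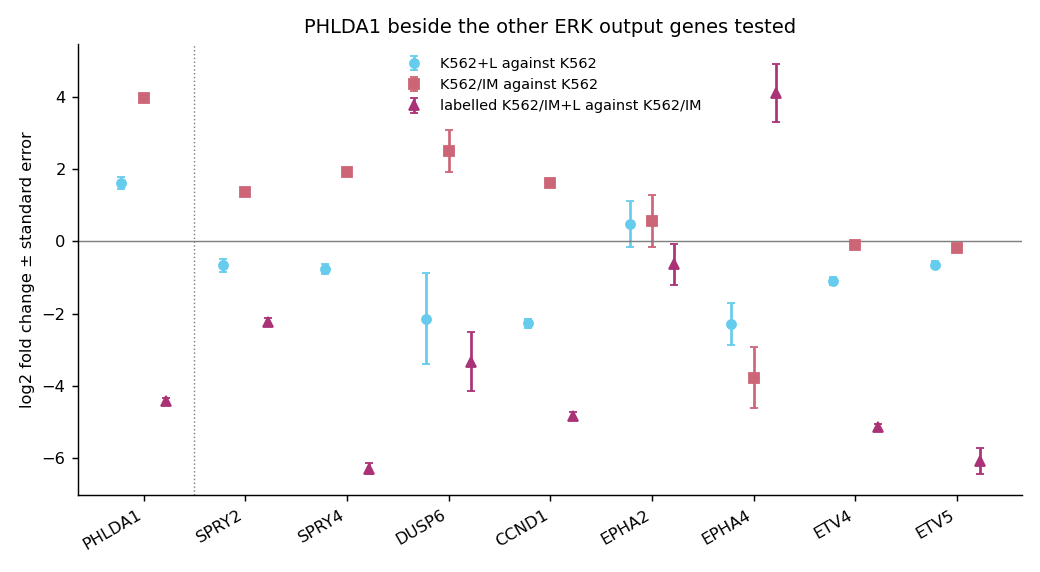
Log2 fold change ± standard error of PHLDA1 and the 8 other ERK output genes tested, in 3 comparisons. In K562+L against K562 PHLDA1 lies at 1.61 while CCND1 lies at -2.26, and against K562/IM the labelled libraries have PHLDA1 at -4.40 and SPRY4 at -6.28.

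PHLDA3 belongs to the p53 target genes, of which 23 others were tested. In K562/IM against K562, 14 were called higher and 2 lower, and the median log2 fold change was 0.532. CDKN1A, the cell cycle inhibitor p21, rose from 12.2 ± 1.01 to 56.3 ± 1.72 CPM (SD, n = 3), with a log2 fold change of 2.20 (SE 0.089, adjusted p = 1.74e-06). In K562+L against K562, 7 were called higher and 6 lower, with a median of 0.148, and BTG2, an antiproliferative gene, was higher at a log2 fold change of 1.34 (SE 0.096, adjusted p = 0.000141). In the labelled libraries 5 were called higher and 9 lower than in K562/IM, with a median of -0.126. TNFRSF10B, the death receptor DR5, fell from 56.1 ± 0.664 to 3.03 ± 0.471 CPM (SD, n = 3), with a log2 fold change of -4.18 (SE 0.13, adjusted p = 4.54e-07), while BTG2 was higher by 2.23 (SE 0.11, adjusted p = 3.29e-06). Against K562 the labelled libraries had 9 called higher and 6 lower, with a median of -0.0817. For the difference between the lycorine effects 8 were called higher and 11 lower. TIGAR averaged 2.28 CPM in K562, 0.0359 in K562/IM and 1.42 where the label was K562/IM+L. It was among the 2 genes called lower in K562/IM against K562. The 5 genes called higher with the label, against K562/IM, also included TIGAR. Both times TIGAR passed the low-count filter only through the group where it was higher, so that its direction was set by that group.

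The PI3K and AKT list covers PI3K subunits and lipid phosphatases, which make and remove phosphoinositides, together with AKT kinases, their regulators and downstream genes such as MTOR and FOXO3. Of 24 genes tested in K562/IM against K562, 11 were called higher and 3 lower, and the median log2 fold change was 0.202. The largest rise in the list was that of INPP5D, the 5-phosphatase SHIP1, which held 0, 0.0238 and 0.167 CPM in K562 and 32.8, 30.5 and 31.4 CPM in K562/IM. INPP5D passed the low-count filter there only through K562/IM, so that its direction was set by that group. INPP4B, a 4-phosphatase, rose from 0.455 ± 0.298 to 6.51 ± 0.778 CPM (SD, n = 3), with a log2 fold change of 3.83 (SE 0.48, adjusted p = 0.000367). In the labelled libraries 6 were called higher and 10 lower than in K562/IM, with a median of -0.159. INPP5D was lower there by a log2 fold change of -4.81 (SE 0.16, adjusted p = 5.12e-07), and PIK3R2, a regulatory subunit of PI3K, was higher by 1.79 (SE 0.066, adjusted p = 8.59e-07). In K562+L against K562, 9 of 23 were called higher and 3 lower, with a median of 0.313. Against K562 the labelled libraries had 6 called higher and 5 lower (1 lower under upper-quartile scaling), with a median of -0.00721, and the difference between the lycorine effects was called higher for 3 genes and lower for 14. INPP5D, among those called higher against K562, averaged 1.1 CPM in the labelled libraries and passed the filter only through them.

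PHLDA1 is also induced by endoplasmic reticulum stress. Of the 15 genes of that response and the integrated stress response, K562+L had 3 called higher and 6 lower than K562, and the median log2 fold change was -0.0179. PPP1R15A, which restores translation after stress, rose from 92.2 ± 8.24 to 260.0 ± 7.24 CPM (SD, n = 3), with a log2 fold change of 1.49 (SE 0.091, adjusted p = 7.82e-05). CHAC1, a glutathione-degrading target of ATF4, fell from 7.49 ± 1.63 to 0.616 ± 0.202 CPM (SD, n = 3), with a log2 fold change of -3.59 (SE 0.28, adjusted p = 0.000185). ASNS, asparagine synthetase, fell by 1.83 on the log2 scale (SE 0.093, adjusted p = 4.81e-05). The list was called higher for 4 genes and lower for 5 in K562/IM against K562, with a median of 0.0377. In the labelled libraries 9 were called higher and 3 lower than in K562/IM, with a median of 0.239, CHAC1 among the former at a log2 fold change of 1.17 (SE 0.093, adjusted p = 3.01e-05). Against K562 these libraries had 5 called higher and 4 lower, with a median of 0.133, and the difference between the lycorine effects was called higher for 8 genes and lower for 6.

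Other small and adaptor proteins with a pleckstrin homology domain moved in both directions. Of 11 tested, 1 was called higher and 3 lower in K562+L, and 7 higher and 2 lower in K562/IM, both against K562, with medians of -0.238 and 0.6. In the labelled libraries 4 of 12 were called higher and 5 lower than in K562/IM, and 5 higher and 3 lower than in K562, with medians of -0.213 and 0.0284. The difference between the lycorine effects was called higher for 4 of 13 and lower for 2. PLEK, among those called higher in K562/IM, averaged 0.0214 CPM in K562 and 0.236 in K562/IM. PLEK2, called higher in the labelled libraries, averaged 0.00694 CPM in K562/IM, 0.0874 in K562 and 1.91 in the labelled libraries. Each passed the low-count filter only through the group where it was higher, so that its direction was set by that group.

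PHLDA2 lies in the imprinted region 11p15.5, where most listed genes tested were called higher in the labelled libraries against K562/IM, the reverse of PHLDA2. Of the 11 genes listed from this region besides PHLDA2, 9 were in the table. Whether each of them is imprinted in these human cells was not examined. Of 8 tested, 7 were called higher in the labelled group than in K562/IM and none lower, with a median log2 fold change of 0.805, while PHLDA2 was lower by 4.84-fold. One of the 7, KCNQ1, averaged 0.0249 CPM in K562/IM and 0.326 in the labelled libraries, and passed the low-count filter only through the latter. CDKN1C, the cell cycle inhibitor p57, whose end lies 42.5 kb from PHLDA2, held 228, 265 and 209 CPM there against 8.48, 9.41 and 7.61 CPM in K562/IM. Its log2 fold change was 4.81 (SE 0.13, adjusted p = 3.07e-07). SLC22A18, a transporter gene 3.03 kb from PHLDA2, rose from 15.6 ± 1.20 to 33.7 ± 5.18 CPM (SD, n = 3), with a log2 fold change of 1.13 (adjusted p = 0.000157). An antisense gene overlaps SLC22A18, so that its reads may be shared. Against K562, 3 of 8 were called higher and none lower, with a median of 0.985.

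Of the remaining comparisons of the imprinted domain, K562/IM against K562 had calls in both directions and K562+L had few. The difference between the lycorine effects had only higher calls. In K562/IM against K562, 2 of 7 were called higher and 4 lower, with a median of -0.302. CDKN1C fell by 1.69 on the log2 scale (SE 0.1, adjusted p = 1.01e-05) while SLC22A18 rose by 2.43 (SE 0.15, adjusted p = 1.17e-05). In K562+L, 2 of 7 were called lower and none higher, with a median of -0.117, and these were CDKN1C, at a log2 fold change of -1.32 (SE 0.21, adjusted p = 0.00305), and SLC22A18, at -1.21 (SE 0.27, adjusted p = 0.0102). For the difference between the lycorine effects 4 of 9 were called higher and none lower, with a median of 0.572. PHLDA2 itself had -2.19 for that difference.

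**Figure D5:**
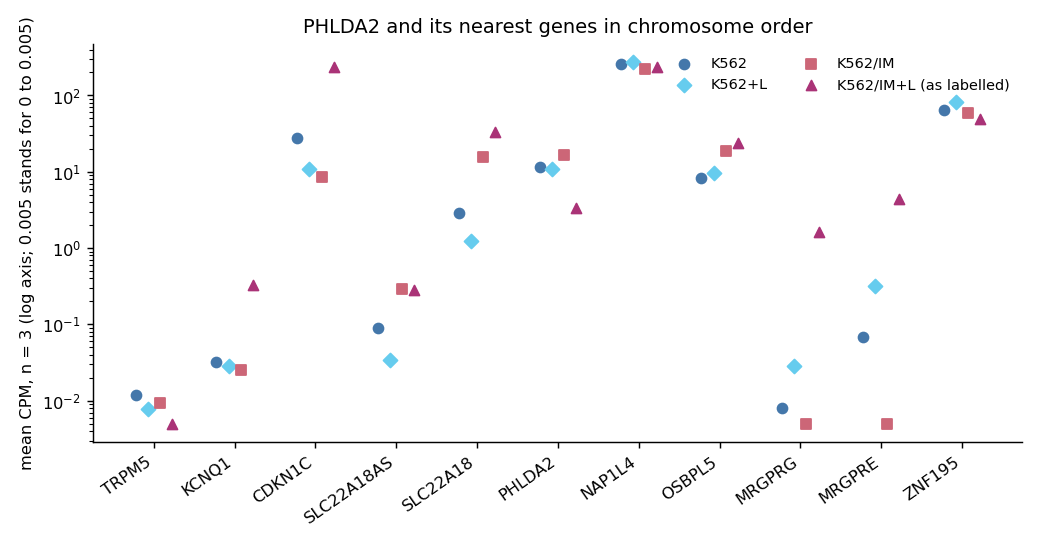
Mean CPM (n = 3, log axis) of PHLDA2 and the 5 nearest genes on either side, in chromosome order, in the 4 groups; points at 0.005 stand for values from 0 to 0.005. At the label K562/IM+L CDKN1C stands at 234 CPM and PHLDA2 at 3.35, and NAP1L4, next to PHLDA2, stays between 220 and 274 in all groups.

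The 5 nearest genes on either side of each member were counted, whether imprinted or not. Around PHLDA2, 6 of 9 tested were called higher and 1, ZNF195, lower in the labelled group than in K562/IM, and 5 higher and 1 lower than in K562. The counts partly reflect the filter, since KCNQ1, MRGPRG and MRGPRE were at 0 to 0.0249 CPM in K562/IM and entered through the labelled libraries, at 0.326, 1.64 and 4.42 CPM. The gene next to PHLDA2, NAP1L4, did not pass against K562/IM (log2 fold change 0.125, adjusted p = 0.108). In K562+L 1 of 6 was called higher and 2 lower, and in K562/IM 2 of 6 higher and 2 lower. PHLDA1 and PHLDA2 have related neighbours. NAP1L1 and OSBPL8 lie on one side of PHLDA1, and NAP1L4 and OSBPL5 on the same side of PHLDA2, nucleosome assembly and oxysterol-binding genes in both cases. NAP1L1, 2.65 kb from PHLDA1, fell in K562/IM by 0.583 on the log2 scale (adjusted p = 0.000323) and was higher in the labelled group than in K562/IM by 0.674 (adjusted p = 0.000249), the opposite of PHLDA1 in each. NAP1L4 was at 259 ± 12 CPM in K562 and 235 ± 7.49 CPM in the labelled libraries (SD, n = 3), with a log2 fold change of -0.156 (adjusted p = 0.14). OSBPL8 was lower in the labelled group than in K562/IM by a log2 fold change of -1.44 (adjusted p = 0.000449), and OSBPL5 higher by 0.374 (adjusted p = 0.0041).

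Around PHLDA1, 3 of 7 tested were called higher and 1 lower in K562+L, and 1 higher and 2 lower in K562/IM, both against K562. In the labelled libraries 3 of 8 were called higher and 3 lower than in K562/IM, and 2 higher and 2 lower than in K562. Around PHLDA3, all 6 tested were called higher in K562/IM than in K562, and 5 of 6 were lower in the labelled group than in K562/IM, with 1 higher. IGFN1 and SHISA4 passed the filter through K562/IM, at 1.23 and 1.44 CPM against 0.0172 and 0.0998 in K562, so that their direction was set by it. NAV1, a neuron navigator gene 154 kb from PHLDA3, had a mean of 70.4 ± 1.87 CPM in K562/IM, 19.5 ± 3.83 in K562 and 2.49 ± 1.00 in the labelled libraries (SD, n = 3). Its log2 fold change was 1.85 in K562/IM against K562 (adjusted p = 3.01e-05) and -4.78 in the labelled libraries against K562/IM (adjusted p = 5.73e-06). In K562+L, 1 of 5 neighbours of PHLDA3 was called lower and none higher, and against K562 the labelled libraries had 1 of 5 higher and 2 lower. For the difference between the lycorine effects 3 neighbours of PHLDA1 were called higher and 3 lower, 4 of PHLDA2 higher and 1 lower, and 1 of PHLDA3 higher and 4 lower.

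Genes with patterns nearest to those of PHLDA1 and PHLDA2 were ranked by the root mean square difference of log2 CPM over the 12 libraries, each gene centred on its own mean. This is a description over libraries that fall into 4 groups. For PHLDA1 they were CTTNBP2NL (0.387), the myeloid transcription factor gene SPI1 (0.400), ABCB1 (0.408), KIAA1549 (0.427) and the intermediate filament gene NES (0.437), against a median of 1.78 over 13994 genes. SPI1 averaged 2.59 CPM in K562, 4.30 in K562+L, 33.7 in K562/IM and 1.98 in the labelled libraries. PHLDA2 stood at rank 622 by this measure, at 1.25. For PHLDA2 the nearest were SYBU (0.226), the myelin protein gene PMP22 (0.243), SLC10A4 (0.263), NRROS (0.266) and RELT (0.271), against a median of 1.02. PMP22 averaged 31.9 CPM in K562, 28.2 in K562+L, 43.6 in K562/IM and 10.1 in the labelled libraries. PHLDA1 was at rank 9650 of that order, so that the nearest genes of one member did not include the other.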

How the data were processed

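The authors deposited 1 table of whole-number counts per gene symbol, without normalization, for 12 poly(A) libraries. The submitters' processing notes name FastQC, STAR, StringTie and DESeq2 with build hg38; versions, annotation and strand setting are not given in the sources used here. Whole numbers that are divisible by 4, or 1 above such a number, make up 52% of the range from 1 to 25 but 67.9% of the 23289 values in it, so counting noise may exceed that of the totals.

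The family, gene lists and tests were chosen with earlier results of these data known. A test of PHLDA1 in K562/IM against K562 was planned and is not reported, since its libraries entered the choice. Libraries were grouped by their treatment labels. For each comparison the 6 libraries went through filterByExpr (minimum count 10), TMM scaling and the quasi-likelihood test of edgeR 4.0.16 in R 4.3.3, with Benjamini-Hochberg adjustment over all genes tested. A gene counted as called where the adjusted p was under 0.05. The difference between lycorine effects was an interaction over 12 libraries. CPM used TMM over 12 libraries, and levels per kb the exons of GENCODE release 29. Limits for 0 counts are 3 counts and cover counting error only. Named genes were up to 2 called genes per list, comparison and direction with the largest absolute log2 fold change, the 5 nearest genes on each side, and 5 genes nearest in pattern. List genes named in one comparison are also given in others. Alternatives covered normalization, DESeq2 1.42.0, filters, counts divided by 4, a fold threshold, the replicate block, a fit of all libraries and each library left out. No 2 libraries agreed within sampling noise. The test was checked on simulated counts.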

Additional observations from a re-analysis of the deposited data

Results flagged for a closer look

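The effect labelled as lycorine differed between K562/IM and K562 for PHLDA2, by -2.19 on the log2 scale (adjusted p = 4.92e-05, edgeR). For PHLDA1 the difference was -6.03: all lycorine-treated K562 libraries were above their controls and all libraries labelled K562/IM+L below theirs. Taken singly, 25.7% and 38.5% of all genes were in those directions without overlap. The share of genes with both is not given here. Since PHLDA1 was chosen for the difference of -6.03, that difference was not tested.

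The same difference passed an adjusted p under 0.05 for other named genes, which are given as values. Among ERK output genes it was -5.54 for SPRY4, -5.46 for ETV5, -4.07 for ETV4, -2.58 for CCND1 and 6.37 for the weakly detected EPHA4. Among p53 targets it was -3.80 for CDKN1A, -3.82 for TNFRSF10B and 0.866 for BTG2. In the PI3K and AKT list it was -4.65 for INPP4B, 1.85 for PIK3R2 and -4.71 for INPP5D, of which INPP5D lost the call without the third K562+L library, at -2.55 (adjusted p = 0.355). Among stress response genes it was 4.74 for CHAC1, 2.41 for ASNS and -0.665 for PPP1R15A. Near the members it was 6.11 for CDKN1C, 2.33 for SLC22A18, 1.09 for NAP1L1, -1.45 for OSBPL8 and -3.72 for NAV1. These differences use the labels of the K562/IM+L libraries, and 29.9% and 31.7% of all genes were called higher and lower for the same difference.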

How the results depend on the processing

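PHLDA1 kept its direction in each comparison under every alternative run, from 3.90 to 4.02 in K562/IM against K562. In the labelled libraries against K562 it moved from -0.475 to -0.325 under upper-quartile scaling, which shifts the median of all genes there to 0.171 and the share of calls that are higher from 50.4% to 61.3%; for the difference between the lycorine effects that median became 0.108. PHLDA2 in K562+L against K562 ran from -0.307 to 0.0623 when single libraries were left out and reversed only without the third K562 library. In K562/IM against K562 PHLDA2 ran from 0.276 to 0.657 over the same omissions and passed the threshold with upper-quartile scaling (0.544), DESeq2 (0.474), no low-count filter (0.498), at least 10 counts in every library (0.513), counts divided by 4 (0.497) and without the third K562 library (0.657), with adjusted p from 0.0149 to 0.139 over all alternatives. Its other 3 comparisons kept direction and call. Counts of called genes in the lists and among neighbours were rerun with DESeq2, upper-quartile scaling and a fold threshold. Of these, 58 changed past a preset ratio and 212 did not. With the fold threshold, ERK output genes lower in K562+L went from 6 to 3, and those higher in K562/IM stayed at 4. The p53 targets higher in K562/IM went from 14 to 6, and PI3K and AKT genes higher in K562+L from 9 to 1.

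The number of genes called in K562+L against K562, 4821, became 3126 with the replicate block, 826 with a fold threshold of 1 on the log2 scale, and 2871 to 5823 with single libraries left out. The lowest counts came without the second K562 library (2871), the first K562+L library (2971) and the third K562+L library (3058). The fold threshold left 2566 of 7661 genes in K562/IM against K562, 3917 of 9169 in the labelled libraries against K562/IM and 3162 of 7446 against K562. Same-numbered libraries did not deviate together (r from -0.227 to 0.150), and the replicate block changed no call of PHLDA2, at 0.525 in K562/IM against K562 (adjusted p = 0.0598). The cause of these changes was not tested.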
